A study of Homo sapiens with 7 samples.

Results

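The WNT pathway genes described here are 52 named genes of a table of 23262, taken by gene symbol and read in every library. They comprise 19 WNT ligands, 10 frizzled receptors, 11 secreted antagonists (SFRP1, SFRP2, SFRP4, SFRP5, FRZB, DKK1 to DKK4, WIF1 and NOTUM), 4 co-receptors or R-spondin receptors (LRP5, LRP6, LGR4, LGR5), 3 R-spondins, and 5 nuclear effectors or feedback targets (AXIN2, LEF1, TCF7, SP5, NKD1). All 52 were found in the table. The cells were human embryonic stem cells (hESC) of a dual reporter line labelled H3 hESC, with eGFP reporting the heart transcription factor gene NKX2-5 and mCherry reporting alpha-MHC, the cardiac myosin encoded by MYH6. All 7 groups carried both reporters. The label's reporter name counts upward from sample to sample, as NKX2-5eGFP, NKX2-6eGFP and so on, and was read as 1 line here. They were driven toward heart muscle and double sorted by flow cytometry on days 3, 7 and 14, with CD13 (the gene ANPEP) and the WNT receptor ROR2 as surface markers. The 7 groups are undifferentiated hESC on day 0; CD13+/ROR2+ and CD13-/ROR2- cells on day 3; NKX2-5+ and NKX2-5- cells of the CD13+/ROR2+ population on day 7; and aMHC+ and aMHC- cells on day 14, both also CD13+/ROR2+ and NKX2-5+. When the later cells passed the CD13 and ROR2 gate is not in the labels, which give the cell type of NKX2-5- and aMHC- cells as unknown. Each group is 1 library from this line, with no replicate, so no difference below has a replicate check, an error or a p-value.

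WNT proteins are lipid-modified secreted ligands. They bind a frizzled receptor together with the co-receptor LRP5 or LRP6, which spares beta-catenin from destruction and lets it act with TCF and LEF factors on target genes such as AXIN2 and SP5. Other ligands, WNT5A and WNT11 among them, can act through ROR2 and cell polarity proteins without beta-catenin. Secreted frizzled-related proteins (SFRP1, SFRP2, SFRP4, SFRP5 and FRZB) bind the ligands, Dickkopf proteins (DKK1, DKK2 and DKK4) block the co-receptors, and R-spondins acting through LGR receptors hold frizzled proteins at the cell surface. In embryos and in stem cell cultures, WNT signalling through beta-catenin is needed to form mesoderm and is later held down for heart muscle to form.

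The promoters of SP5 and DKK1 are shown because both genes are targets of beta-catenin, both were higher in day 3 CD13+/ROR2+ cells than in hESC, and both hold CTTTGA, 1 form of the core letters bound by TCF and LEF factors. The motif searched was CTTTGA on either strand (TCAAAG when it lies on the opposite one), in the 300 bases from 250 before to 50 after each annotated start in RefSeq's table, build GRCh38.p14. Capitals mark the motif, and each sequence runs 5′ to 3′ along the gene's own strand. SP5 lies at chr2:170715087-170715386 and DKK1 at chr10:52314031-52314330, both on the plus strand.
SP5: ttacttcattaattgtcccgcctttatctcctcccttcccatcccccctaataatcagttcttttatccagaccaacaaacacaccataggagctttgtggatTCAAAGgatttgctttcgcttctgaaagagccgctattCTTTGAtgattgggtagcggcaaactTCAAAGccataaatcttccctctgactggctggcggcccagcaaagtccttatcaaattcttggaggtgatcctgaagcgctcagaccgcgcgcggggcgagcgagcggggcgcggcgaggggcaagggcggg
DKK1: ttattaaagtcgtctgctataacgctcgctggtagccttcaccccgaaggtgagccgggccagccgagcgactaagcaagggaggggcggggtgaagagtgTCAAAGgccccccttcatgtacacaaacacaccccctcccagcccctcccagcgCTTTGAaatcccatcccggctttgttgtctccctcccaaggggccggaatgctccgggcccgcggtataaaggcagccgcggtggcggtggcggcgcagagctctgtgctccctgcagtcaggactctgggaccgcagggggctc
Counted from the start site, the SP5 window held 3 copies, beginning at -147, -109 and -83, and the DKK1 window 2, beginning at -149 and -95. No copies overlapped. Of the 34 members with an entry in that table, SP5 and DKK1 were the 2 that held CTTTGA. Other forms of the core were not searched, nor were the 18 members without an entry, AXIN2, LGR5, NKD1 and DKK4 among them. Among all 35116 windows of that length 12.9% held at least 1 copy, 1.29% at least 2 and 0.0997% at least 3. The members' share, 2 of 34, was thus below that of all windows. These matches are letters in a window and do not show that a factor binds there.

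Expression is given in FPKM, fragments scaled for transcript length and library total, as deposited. Day 7 NKX2-5+ had 9699 genes of 1 FPKM or more, and the other 6 libraries 10656 to 10830. Steps between low values placed the sequencing depth of day 7 NKX2-5+ at 0.599 times that of hESC and 4 other sorted libraries at 1.30 to 3.07 times. No usable estimate was had for day 7 NKX2-5-. Low values rest on few reads, and a listed 0 can be a failed estimate. In bulk samples, fewer cells of a type and less RNA per cell cannot be told apart. Markers went with most labels only in part. All 6 pluripotency markers reached 5 FPKM in hESC, all 8 streak and mesoderm markers in CD13+/ROR2+, and all 6 heart muscle markers in day 7 NKX2-5+ and both day 14 libraries. But 6 of the 8 streak and mesoderm markers also did so in CD13-/ROR2-, and 4 of the 6 heart muscle markers in day 7 NKX2-5-. T and KDR were higher in CD13-/ROR2- cells, at 18.7 and 16.2 FPKM, than in CD13+/ROR2+ cells, at 7.32 and 8.04. The rest of that list was higher in CD13+/ROR2+. The CD13-/ROR2- library is labelled as an endoderm progenitor, but none of 5 definitive endoderm markers (SOX17, FOXA2, FOXA1, CXCR4, HHEX) reached 5 FPKM there, with FOXA1 at 0. Their summed level was 39.3 FPKM in CD13+/ROR2+ cells against 3.88 in the CD13-/ROR2- cells, and all 6 pluripotency markers reached 5 FPKM in CD13-/ROR2-. It is therefore called by its sort. Among the sort genes, ANPEP stood at 12.0 FPKM in CD13+/ROR2+ cells against 0.984 in the CD13-/ROR2- cells, NKX2-5 at 70.2 FPKM in NKX2-5+ cells against 1.18 in the NKX2-5- cells, and MYH6 at 342 FPKM in aMHC+ cells against 136 in the aMHC- cells. ANPEP was below 2 FPKM in all libraries of days 7 and 14.

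Of the 52 genes, 22 reached 5 FPKM in at least 1 library, 13 peaked between 1 and 5 FPKM, and 17 stayed below 1 FPKM throughout. Members of at least 5 FPKM numbered 5 in hESC, 16 in day 3 CD13+/ROR2+, 5 in CD13-/ROR2-, 4 in day 7 NKX2-5+ cells, 14 in NKX2-5- cells, 7 in day 14 aMHC+ cells and 9 in aMHC- cells. As deposited, the CD13+/ROR2+ and the day 7 NKX2-5- cells thus had the most members at that level. The share of all genes at 5 FPKM was not taken for each library alone. In at least 1 library of the day 3 pair it was 25.3%, against 32.7% of members. For the day 7 pair it was 21.4% against 26.9% of members, and for the day 14 pair 24.6% against 17.3%. Of the 22, 8 had their highest level in CD13+/ROR2+, 3 in CD13-/ROR2-, 1 in day 7 NKX2-5+, 4 in NKX2-5- and 6 in day 14 aMHC-. The share of all genes that peaked in each library was not taken, so these counts have no background. They also follow unscaled values. Relative to the geometric mean of the 7 libraries, the typical gene stood at 0.687 in day 7 NKX2-5+, 1.11 in CD13+/ROR2+ and 1.22 in day 14 aMHC-.

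**Figure D1:**
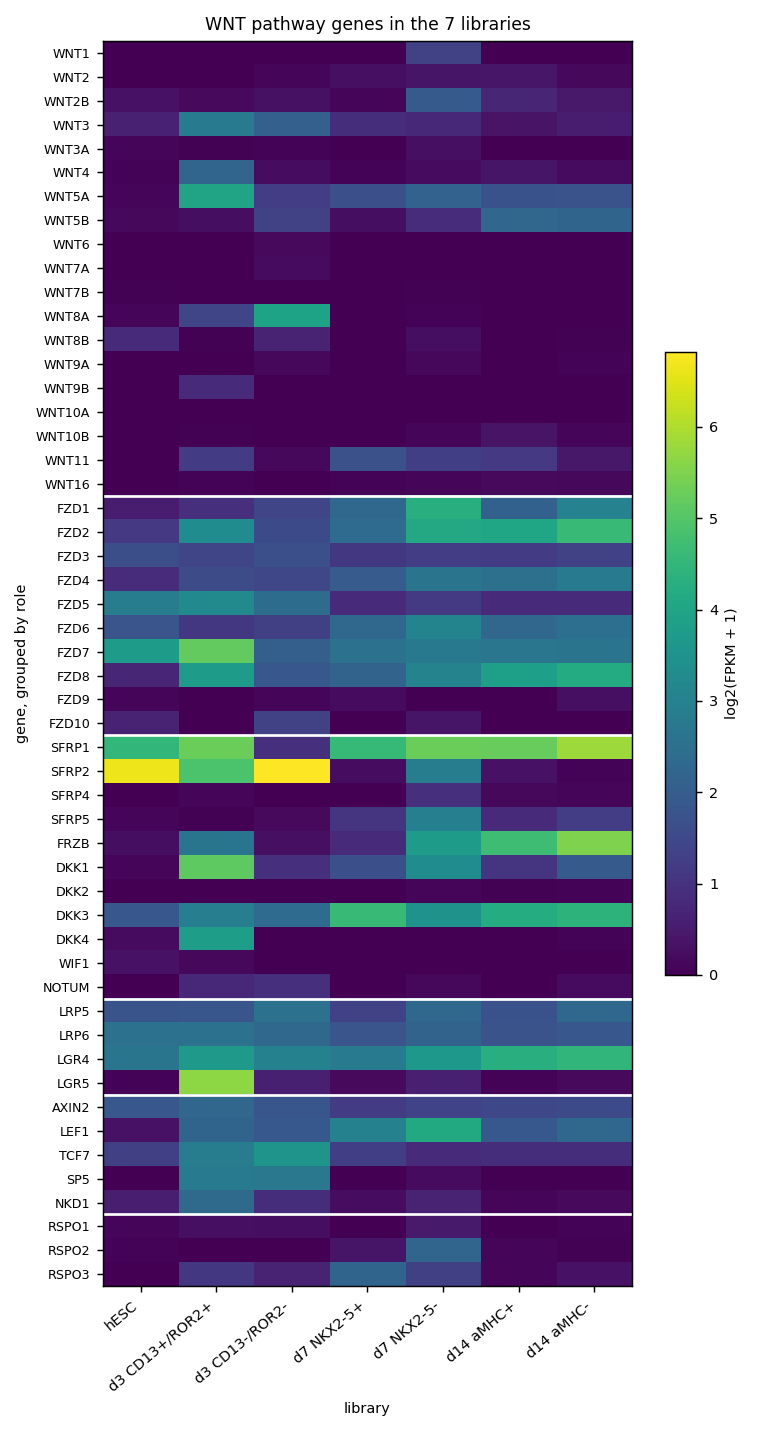
Heat map of log2(FPKM + 1) for the 52 genes (rows, grouped by role between white lines) in the 7 libraries (columns, in order of day). Most ligand rows are dark throughout, SFRP2 is bright in hESC and day 3 CD13-/ROR2-, LGR5 in day 3 CD13+/ROR2+ alone, and FRZB in both day 14 libraries.

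Ligand transcripts were scarce in hESC and appeared on day 3, with different genes in the CD13+/ROR2+ and CD13-/ROR2- cells. Their summed level was 1.96 FPKM in hESC, 28.5 in CD13+/ROR2+, 22.4 in CD13-/ROR2-, 5.87 in day 7 NKX2-5+ cells, 11.9 in NKX2-5- cells, 9.27 in day 14 aMHC+ cells and 7.62 in aMHC- cells. In CD13+/ROR2+ WNT5A made up 51.7% of that sum, and in CD13-/ROR2- WNT8A made up 65.0%. These shares do not depend on how the libraries are scaled.

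WNT5A, a ligand of the ROR2 receptor that defines the sort, stood at 0.0947 FPKM in hESC, 14.7 in CD13+/ROR2+, 1.38 in CD13-/ROR2-, 2.19 in day 7 NKX2-5+ cells, 3.46 in NKX2-5- cells, 2.31 in day 14 aMHC+ cells and 2.35 in aMHC- cells. It was thus high in 1 library and between 1 and 4 FPKM in every other differentiated one. WNT8A, a ligand of the primitive streak that signals through beta-catenin, stood at 0.0669 FPKM in hESC, 1.68 in CD13+/ROR2+, 14.6 in CD13-/ROR2- and 0.0551 in day 7 NKX2-5-. It was listed at 0 in day 7 NKX2-5+ and both day 14 libraries, so that it was a day 3 transcript. WNT3, which starts the streak in mouse embryos, stood at 0.541 FPKM in hESC, 5.87 in CD13+/ROR2+, 3.25 in CD13-/ROR2-, 0.865 in day 7 NKX2-5+ cells, 0.686 in NKX2-5- cells, 0.272 in day 14 aMHC+ cells and 0.450 in aMHC- cells. Both day 3 libraries exceeded the remaining 5, and its paralog WNT3A stayed at or below 0.205 FPKM.

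Of the remaining 16 ligands, 5 passed 1 FPKM somewhere. WNT4 reached 3.68 FPKM in CD13+/ROR2+ and at most 0.309 elsewhere. WNT5B was highest on day 14, at 3.78 FPKM in aMHC+ and 3.56 in aMHC-, against 1.52 in day 3 CD13-/ROR2- and at most 0.822 in the others. WNT11, a ligand of heart formation, was listed at 0 in hESC and stood at 1.32 FPKM in CD13+/ROR2+, 0.111 in CD13-/ROR2-, 2.26 in day 7 NKX2-5+ cells, 1.39 in NKX2-5- cells, 1.19 in day 14 aMHC+ cells and 0.344 in aMHC- cells. Among the sorted fractions it was below 1 FPKM in the CD13-/ROR2- cells of day 3 and the aMHC- cells of day 14. WNT2B (2.82 FPKM) and WNT1 (1.48 FPKM) were highest in day 7 NKX2-5-, and WNT1 was listed at 0 in the other 6 libraries. The other 11 ligands never reached 1 FPKM, and WNT10A was listed at 0 throughout. The spans of WNT2B, WNT3, WNT6, WNT9B and WNT10A overlap those of other genes of the table in the annotation. The library kit does not mark strand, so reads from a stretch that both transcripts share cannot be told apart. Whether the transcripts share such a stretch was not checked.

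The leading frizzled receptor transcript was FZD7 in hESC, CD13+/ROR2+ and day 7 NKX2-5+, FZD5 in CD13-/ROR2-, FZD1 in day 7 NKX2-5- and FZD2 in both day 14 libraries. FZD7, the main frizzled of pluripotent cells, stood at 12.3 FPKM in hESC, 35.0 in CD13+/ROR2+, 3.21 in CD13-/ROR2-, 4.84 in day 7 NKX2-5+ cells, 5.74 in NKX2-5- cells, 5.44 in day 14 aMHC+ cells and 5.14 in aMHC- cells. It made up 45.6% of frizzled FPKM in hESC and 49.3% in CD13+/ROR2+, but 15.5% in CD13-/ROR2- and 7.79% to 19.1% on days 7 and 14. The later libraries were close to one another, and CD13+/ROR2+ was the highest library, at 2.85 times the hESC level. FZD5 stood at 6.29 FPKM in hESC, 8.59 in CD13+/ROR2+, 4.34 in CD13-/ROR2-, 0.759 in day 7 NKX2-5+ cells, 1.23 in NKX2-5- cells, 0.748 in day 14 aMHC+ cells and 0.791 in aMHC- cells. All 3 libraries up to day 3 were above all 4 later ones.

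FZD2 was highest on day 14 and in day 7 NKX2-5- cells. It stood at 1.17 FPKM in hESC, 9.05 in CD13+/ROR2+, 1.88 in CD13-/ROR2-, 4.22 in day 7 NKX2-5+ cells, 16.5 in NKX2-5- cells, 15.2 in day 14 aMHC+ cells and 23.4 in aMHC- cells. On day 14 it came first, with 31.8% of the sum in aMHC+ and 35.4% in aMHC-, followed by FZD8 with 27.9% in aMHC+ and 26.2% in aMHC-. FZD8 stood at 0.658 FPKM in hESC, 12.6 in CD13+/ROR2+, 2.62 in CD13-/ROR2-, 3.50 in day 7 NKX2-5+ cells, 7.25 in NKX2-5- cells, 13.3 in day 14 aMHC+ cells and 17.3 in aMHC- cells. FZD1 was highest in day 7 NKX2-5-, where it held 29.2% of the sum. Its levels were 0.461 FPKM in hESC, 0.915 in CD13+/ROR2+, 1.70 in CD13-/ROR2-, 3.88 in day 7 NKX2-5+ cells, 18.5 in NKX2-5- cells, 3.34 in day 14 aMHC+ cells and 7.13 in aMHC- cells. Every library from day 7 on was above the earlier ones.

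FZD4, which also binds the eye protein norrin, ranged from 0.810 FPKM in hESC to 5.99 in day 14 aMHC- and was higher in each library of days 7 and 14 than in any earlier one. The span of FZD4 overlaps that of PRSS23 in the annotation, and unstranded reads from any stretch that both transcripts share cannot be told apart. FZD6, which takes part in cell polarity, ranged from 1.15 FPKM in CD13+/ROR2+ to 7.39 in day 7 NKX2-5-. FZD3 stayed between 1.17 and 2.17 FPKM. FZD10 peaked at 1.47 FPKM in CD13-/ROR2-, and FZD9 stayed at or below 0.214 FPKM. The summed frizzled level was 26.9 FPKM in hESC, 71.0 in CD13+/ROR2+, 20.6 in CD13-/ROR2-, 25.4 in day 7 NKX2-5+ cells, 63.4 in NKX2-5- cells, 47.9 in day 14 aMHC+ cells and 66.0 in aMHC- cells. On days 7 and 14 the reporter-negative fraction had the higher sum.

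**Figure D2:**
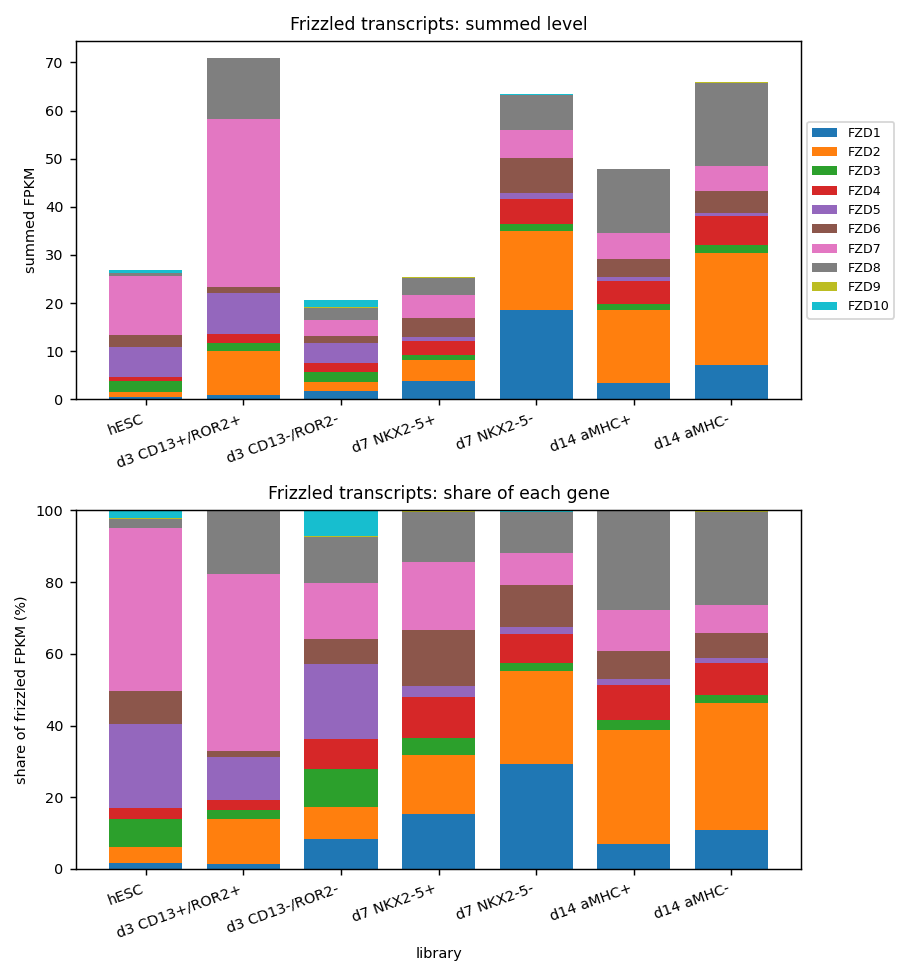
Stacked bars of the 10 frizzled genes in each library (x axis, in order of day), as summed FPKM above and as percent of that sum below. FZD7 takes 45.6% and 49.3% in hESC and day 3 CD13+/ROR2+, while FZD2 and FZD8 lead in both day 14 libraries.

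The co-receptors LRP5 and LRP6 were never below 1 or above 5 FPKM. LRP6 stayed between 2.36 and 4.88 FPKM and LRP5 between 1.49 and 4.80, a 2.06-fold and a 3.23-fold span over all libraries. LGR4, a receptor of R-spondins, stood at 5.28 FPKM in hESC, 11.9 in CD13+/ROR2+, 6.91 in CD13-/ROR2-, 5.94 in day 7 NKX2-5+ cells, 11.5 in NKX2-5- cells, 18.3 in day 14 aMHC+ cells and 21.5 in aMHC- cells, and was the 1 member with at least 5 FPKM in all 7. Its paralog LGR5 was instead a day 3 CD13+/ROR2+ transcript. LGR5 stood there at 49.8 FPKM, against 0.517 in CD13-/ROR2- and 0.0527 in hESC, and between 0.0521 and 0.503 FPKM on days 7 and 14. The 3 R-spondins among the members were low. RSPO3 was listed at 0 in hESC and stood at 1.17 FPKM in CD13+/ROR2+, 0.582 in CD13-/ROR2-, 3.56 in day 7 NKX2-5+ cells, 1.44 in NKX2-5- cells, 0.0935 in day 14 aMHC+ cells and 0.252 in aMHC- cells. RSPO2 peaked at 3.69 FPKM in day 7 NKX2-5- and RSPO1 did not pass 0.409 FPKM. Day 7 was thus when the R-spondin sum was highest, at 3.87 FPKM in NKX2-5+ and 5.53 in NKX2-5-.

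Secreted antagonists had the highest summed FPKM of the 6 roles in every library, between 50.3 in day 7 NKX2-5+ and 126 in CD13+/ROR2+. SFRP2 led them in hESC and CD13-/ROR2-, DKK3 in day 7 NKX2-5+ and SFRP1 in the other 4 libraries. SFRP2 stood at 99.2 FPKM in hESC, 28.5 in CD13+/ROR2+, 111.9 in CD13-/ROR2-, 0.170 in day 7 NKX2-5+ cells, 6.47 in NKX2-5- cells, 0.254 in day 14 aMHC+ cells and 0.0504 in aMHC- cells. It made up 79.7% of antagonist FPKM in hESC and 93.9% in CD13-/ROR2-. SFRP1 stood at 21.9 FPKM in hESC, 38.0 in CD13+/ROR2+, 0.879 in CD13-/ROR2-, 22.7 in day 7 NKX2-5+ cells, 38.4 in NKX2-5- cells, 36.8 in day 14 aMHC+ cells and 55.2 in aMHC- cells. The CD13-/ROR2- library was the 1 in which SFRP1 was low, and SFRP2 was at its highest there.

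FRZB, a frizzled-related protein first known from cartilage, stood at 0.194 FPKM in hESC, 5.27 in CD13+/ROR2+, 0.213 in CD13-/ROR2-, 0.749 in day 7 NKX2-5+ cells, 12.5 in NKX2-5- cells, 25.1 in day 14 aMHC+ cells and 44.5 in aMHC- cells. On day 14 it took 30.8% of the antagonist sum in aMHC+ and 35.7% in aMHC-, behind SFRP1 with 45.1% in aMHC+ and 44.3% in aMHC-. DKK3, a Dickkopf relative whose action on WNT is disputed, stood at 2.61 FPKM in hESC, 6.50 in CD13+/ROR2+, 4.23 in CD13-/ROR2-, 23.4 in day 7 NKX2-5+ cells, 10.4 in NKX2-5- cells, 17.5 in day 14 aMHC+ cells and 20.3 in aMHC- cells. It was the 1 member of at least 5 FPKM that was highest in day 7 NKX2-5+, where it held 46.5% of the antagonist sum beside 45.2% for SFRP1.

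DKK1, an inhibitor of LRP5 and LRP6 that beta-catenin induces, stood at 0.0910 FPKM in hESC, 33.8 in CD13+/ROR2+, 0.920 in CD13-/ROR2-, 2.18 in day 7 NKX2-5+ cells, 8.90 in NKX2-5- cells, 1.02 in day 14 aMHC+ cells and 2.78 in aMHC- cells. DKK4, its relative, stood at 13.0 FPKM in CD13+/ROR2+ and at most 0.146 elsewhere, with 4 libraries listed at 0. Both were highest in CD13+/ROR2+, but DKK1 was again present in day 7 NKX2-5- whereas DKK4 was listed at 0 there. SFRP5 was below 0.2 FPKM up to day 3 and reached 6.70 FPKM in day 7 NKX2-5-, against 1.06 in NKX2-5+. SFRP4, DKK2, WIF1 and NOTUM, an esterase that strips the lipid from WNT proteins, never reached 1 FPKM, with NOTUM highest on day 3 at 0.697 FPKM in CD13+/ROR2+ cells against 0.929 in the CD13-/ROR2- cells.

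**Figure D3:**
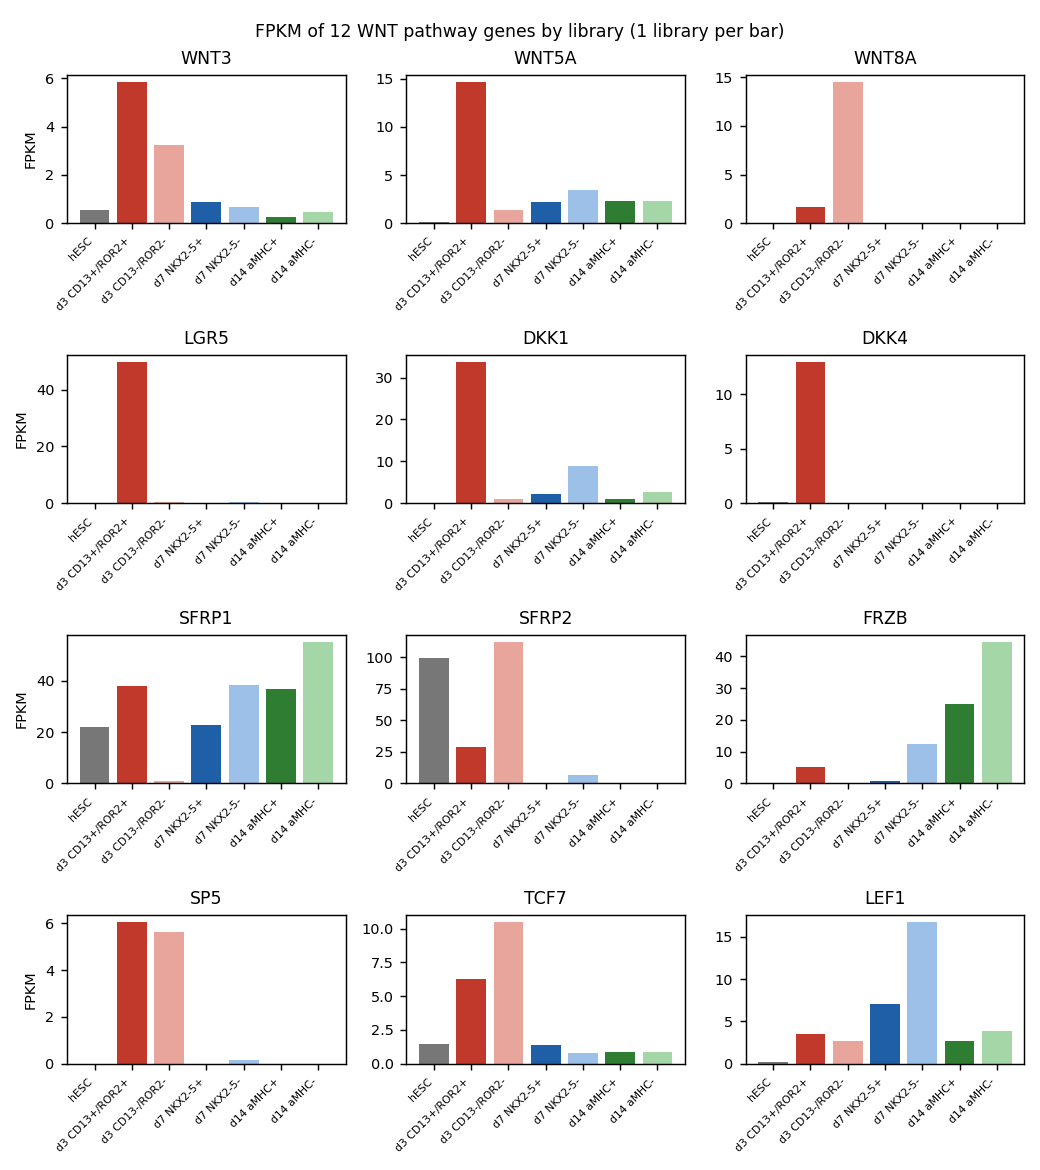
FPKM of 12 genes (1 panel each, each with its own y axis from 0) in the 7 libraries, with 1 library per bar. WNT5A, LGR5, DKK1 and DKK4 peak in day 3 CD13+/ROR2+ (red), WNT8A and TCF7 in CD13-/ROR2- (pale red), LEF1 in day 7 NKX2-5- (pale blue) and FRZB in day 14 aMHC- (pale green).

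Nuclear effectors and feedback targets did not share 1 pattern. SP5, a transcription factor gene that beta-catenin activates directly, stood at 6.06 FPKM in CD13+/ROR2+ cells against 5.65 in the CD13-/ROR2- cells, at 0.155 in day 7 NKX2-5-, and was listed at 0 in hESC, day 7 NKX2-5+ and both day 14 libraries. TCF7 stood at 1.44 FPKM in hESC, 6.26 in CD13+/ROR2+, 10.5 in CD13-/ROR2-, 1.41 in day 7 NKX2-5+ cells, 0.771 in NKX2-5- cells, 0.843 in day 14 aMHC+ cells and 0.861 in aMHC- cells. The span of TCF7 overlaps that of the abundant gene VDAC1 in the annotation, and unstranded reads from any shared stretch cannot be told apart. SP5 and TCF7 were therefore high in both day 3 libraries and low before and after. LEF1, a partner of beta-catenin on DNA like TCF7, instead continued past day 3, at 0.249 FPKM in hESC, 3.56 in CD13+/ROR2+, 2.71 in CD13-/ROR2-, 7.00 in day 7 NKX2-5+ cells, 16.7 in NKX2-5- cells, 2.66 in day 14 aMHC+ cells and 3.81 in aMHC- cells. NKD1, a feedback inhibitor that binds Dishevelled, reached 4.16 FPKM in CD13+/ROR2+ and at most 0.843 elsewhere. AXIN2, a scaffold of the complex that destroys beta-catenin and a widely used WNT target, stayed between 1.33 and 3.79 FPKM, a 2.85-fold span, and was highest in CD13+/ROR2+.

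Pairs of libraries were compared by a size rule, since no test is possible with 1 library per group. The rule adds 1 FPKM to both values and calls a gene where the log2 ratio then reaches 2 in size, provided that 5 FPKM or more is listed on the higher side. The words higher and lower below mean a call unless values alone are given. The share of all genes so called is the background for each count of members. Comparisons that share a library are not independent of each other, as with the pairs against hESC, and are given side by side.

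On day 3, CD13+/ROR2+ cells had higher levels than CD13-/ROR2- cells of the antagonists SFRP1, DKK1, DKK4 and FRZB, of LGR5, FZD7 and WNT5A, and a lower level of WNT8A. In CD13+/ROR2+ relative to CD13-/ROR2-, 7 of 52 members were called higher (13.5%, against 0.933% of all genes) and 1 lower (1.92%, against 0.641%). Members with at least 5 FPKM in either library were 17 of 52, against 5875 of all 23262 genes. The higher ones were LGR5 (log2 ratio 5.07), SFRP1 (4.37), DKK1 (4.18), DKK4 (3.81), FZD7 (3.10), WNT5A (2.72) and FRZB (2.37), and the lower one WNT8A (-2.54). The higher ones include 4 of the 11 antagonists, whose median ratio was 0.14, 1 of the 10 frizzled genes (median 0.01), 1 of the 19 ligands (median 0) and 1 of the 4 co-receptors or R-spondin receptors (median 0.49). SFRP2, at 28.5 FPKM in CD13+/ROR2+ against 111.9 in CD13-/ROR2-, fell just short of the rule (-1.94) and passed it after median-ratio scaling, which sets the typical gene equal between libraries. FZD2 and FZD8 in CD13+/ROR2+ were each 4.82 times their CD13-/ROR2- level, with ratios of 1.80 and 1.91 that passed with a pseudocount of 0.1. FRZB, at 5.27 FPKM, lay just above the 5 FPKM minimum and below it after that scaling. The 5 nuclear or feedback genes had ratios between -0.66 for TCF7 and 1.48 for NKD1, and none was called. The median over the 52 was 0.04, and over all genes 0. Markers of other cell types moved with this pair. The 5 hepatic and visceral endoderm markers summed to 28.7 FPKM in CD13+/ROR2+ cells against 2.12 in the CD13-/ROR2- cells, with TTR at 0 in both. APOA2 alone was 27.0 FPKM in CD13+/ROR2+ cells against 1.48 in the CD13-/ROR2- cells, and AFP and SERPINA1 were below 0.1 FPKM in both. The 5 definitive endoderm markers summed to 39.3 FPKM in CD13+/ROR2+ cells against 3.88 in the CD13-/ROR2- cells. The 6 pluripotency markers summed to 273 FPKM in CD13+/ROR2+ cells and 702 in the CD13-/ROR2- cells, none at 0. Of these TDGF1 went the other way, at 171 FPKM in CD13+/ROR2+ cells and 157 in the CD13-/ROR2- cells. The 4 blood markers summed to 4.26 FPKM in CD13+/ROR2+ cells and were listed at 0 in the CD13-/ROR2- cells. Their part in these differences was not tested.

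Of 57 further WNT pathway genes, 4 were called higher (7.02%, against 0.933% of all genes) and 1 lower (1.75%, against 0.641%) in CD13+/ROR2+, with a median of -0.15. In this list 57.9% of genes reached the 5 FPKM a call needs, against 25.3% of all genes and 32.7% of the 52 members. CER1, a secreted antagonist of NODAL, BMP and WNT, stood at 1736 FPKM in CD13+/ROR2+ cells against 11.7 in the CD13-/ROR2- cells. WLS, which carries WNT proteins to the cell surface, stood at 28.8 FPKM in CD13+/ROR2+ cells against 5.54 in the CD13-/ROR2- cells, and DACT1, a Dishevelled partner, at 13.6 FPKM in CD13+/ROR2+ cells against 2.25 in the CD13-/ROR2- cells. ROR2, a sort marker itself, stood at 20.6 FPKM in CD13+/ROR2+ cells against 3.16 in the CD13-/ROR2- cells. The proteoglycan gene GPC3 was the lower one, at 3.44 FPKM in CD13+/ROR2+ cells against 16.9 in the CD13-/ROR2- cells. None of the 9 genes of the destruction complex and its transducers was called in this comparison.

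Against hESC, CD13+/ROR2+ cells had higher levels of LGR5, of 2 ligands, 2 frizzled genes and 3 of the 11 antagonists, and of SP5. The sum over the 11 antagonists, which leaves out CER1, was 126 FPKM in CD13+/ROR2+ cells against 124 in hESC. SFRP2 stood at 28.5 FPKM in CD13+/ROR2+ cells against 99.2 in hESC, short of the rule (-1.76). In all, 9 of 52 members were called higher (17.3%, against 1.13% of all genes) and 0 lower (against 0.641%), namely LGR5 (5.59), DKK1 (4.99), WNT5A (3.84), DKK4 (3.61), FZD8 (3.04), SP5 (2.82), FRZB (2.39), FZD2 (2.21) and WNT3 (2.16). With a pseudocount of 5 in place of 1 that became 2, LGR5 and DKK1. The median over the 52 was 0.28, against 0 over all genes. FRZB again lay below 5 FPKM after median-ratio scaling. FZD7 was 2.85 times its hESC level and SFRP1 1.74 times, both short of the rule. The 5 definitive endoderm markers summed to 39.3 FPKM in CD13+/ROR2+ cells and 0.869 in hESC, with SOX17 at 0 in hESC. The highest hepatic and visceral endoderm marker was APOA2, at 27.0 FPKM in CD13+/ROR2+ cells against 0.378 in hESC. Their part was not tested.

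CD13-/ROR2- differed from hESC in fewer members. There 3 were called higher (5.77%, against 0.357% of all genes), WNT8A (3.87), SP5 (2.73) and TCF7 (2.23), and 1 lower (1.92%, against 0.288%), SFRP1 (-3.61). With a pseudocount of 5 none of the 3 passed. The median was 0.14, against 0 over all genes. Both comparisons rest on the same hESC library.

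Among the 57 further genes 8 were higher (14.0%) and 1 lower (1.75%) in CD13+/ROR2+ than in hESC (median 0.17), and 5 higher (8.77%) and 0 lower in CD13-/ROR2- (median 0.40), beside the shares of all genes given above. Of the streak genes, MIXL1 stood at 210 FPKM in CD13+/ROR2+ cells, 82.0 in the CD13-/ROR2- cells and 1.43 in hESC, and T (brachyury) at 7.32 FPKM in CD13+/ROR2+ cells, 18.7 in the CD13-/ROR2- cells and 0.0485 in hESC. CER1 was at 1736 FPKM in CD13+/ROR2+ cells, 11.7 in the CD13-/ROR2- cells and 0.549 in hESC. The CD13+/ROR2+ cells further exceeded hESC in WLS, at 28.8 FPKM against 0.926 in hESC, and in PYGO1, a nuclear partner of beta-catenin, at 9.92 FPKM against 0.328 in hESC. MSX2, a homeobox gene, was called in both fractions, at 19.4 FPKM in the CD13-/ROR2- cells, 5.50 in CD13+/ROR2+ cells and 0.158 in hESC. BAMBI, a TGF-beta family pseudoreceptor, stood at 37.7 FPKM in the CD13-/ROR2- cells, where it was called, and 7.65 in hESC. In CD13+/ROR2+ cells it stood at 23.8 FPKM, short of the rule (1.52).

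Day 7 NKX2-5+ cells had lower levels than day 3 CD13+/ROR2+ cells of the antagonists DKK1, DKK4 and SFRP2, the receptors LGR5, FZD5 and FZD7, the ligand WNT5A and the target SP5. Of 52 members 8 were called lower in day 7 NKX2-5+ than in CD13+/ROR2+ (15.4%, against 2.2% of all genes) and 0 higher (against 1.06%). The ratios were largest for LGR5 (-5.49), SFRP2 (-4.66), DKK4 (-3.81) and DKK1 (-3.45), followed by SP5 (-2.82), FZD7 (-2.62), FZD5 (-2.45) and WNT5A (-2.30). The day 7 NKX2-5+ library had a general offset of -0.69 on the log2 scale relative to CD13+/ROR2+, and its depth was the lowest of the 6 libraries with an estimate. After median-ratio scaling WNT5A was no longer called (-1.77), and DKK3 was called higher. The 6 stromal markers summed to 43.7 FPKM in NKX2-5+ cells and 13.6 in CD13+/ROR2+ cells, and the hepatic and visceral endoderm markers to 62.0 FPKM in NKX2-5+ cells and 28.7 in CD13+/ROR2+ cells. The stromal sum rose mostly through COL1A1, at 24.0 FPKM in NKX2-5+ cells and 4.60 in CD13+/ROR2+ cells, and COL3A1, at 14.4 and 0.212. LUM, at 3.32 FPKM in NKX2-5+ cells and 7.31 in CD13+/ROR2+ cells, and PDGFRB, at 0.747 and 1.36, went the other way. Lower in sum were the streak and mesoderm markers, at 39.7 FPKM in NKX2-5+ cells and 758 in CD13+/ROR2+ cells, the pluripotency markers, at 10.1 FPKM in NKX2-5+ cells and 273 in CD13+/ROR2+ cells, and the definitive endoderm markers, at 0.138 FPKM in NKX2-5+ cells and 39.3 in CD13+/ROR2+ cells. The part of these lists was not tested. The members' median was -0.13, against -0.05 over all genes. As deposited, DKK3 in NKX2-5+ was 3.60 times its CD13+/ROR2+ level and FZD1 4.23 times, short of the rule. Of all genes called in this comparison 32.5% were higher as deposited, 58.9% after median-ratio scaling and 61.5% at equal sums without small RNA and histone genes.

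Of the 57 further genes 4 were called higher (7.02%, against 1.06% of all genes) and 8 lower (14.0%, against 2.2%), with a median of -0.26. DACT3, a Dishevelled inhibitor, was higher, at 18.3 FPKM in NKX2-5+ cells against 1.46 in CD13+/ROR2+ cells. The lower ones with the largest ratios were CER1 (-9.40), MIXL1 (-7.07), the growth regulator MYC (-3.55), T (-3.06) and MSX1 (-2.82). CER1 stood at 1.56 FPKM in NKX2-5+ cells against 1736 in CD13+/ROR2+ cells, and MYC at 1.32 FPKM in NKX2-5+ cells against 26.3 in CD13+/ROR2+ cells. ROR2 and the polarity receptor PTK7, also called lower as deposited, had ratios of -1.66 and -1.53 after median-ratio scaling. Both are named because that scaling ended their calls, a choice made after seeing their values.

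Within day 7, no member was called higher in NKX2-5+ than in NKX2-5- (0, against 0.434% of all genes) and 3 were called lower (5.77%, against 1.16%). These were FRZB (-2.95), SFRP2 (-2.67) and FZD1, 2 of the 11 antagonists (median -0.73) and 1 of the 10 frizzled genes (median -0.52). FZD1, at 3.88 FPKM in NKX2-5+ cells against 18.5 in the NKX2-5- cells, lay at the very edge of the rule and was not called after median-ratio scaling (-1.66), since the library pair had an offset of -0.43. With a pseudocount of 5 none of the 3 passed. The median over members was -0.26, against -0.07 over all genes. Uncalled members with ratios below -1 were SFRP5 (-1.91), RSPO2 (-1.85), WNT2B (-1.82), FZD2 (-1.74), DKK1 (-1.64), WNT1 (-1.31), LEF1 (-1.15) and, just past it, LRP5. Positive ratios above 0.1 were those of DKK3 (1.09), RSPO3 (0.91), TCF7 (0.44), WNT11 (0.44), FZD9 (0.19) and WNT3 (0.15). Of all genes called within day 7, 27.2% were higher in NKX2-5+ as deposited, 44.4% after median-ratio scaling and 48.9% at equal sums.

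Markers of other cell types differed widely in this pair. The 6 stromal markers summed to 43.7 FPKM in NKX2-5+ and 689 in NKX2-5-, with 2 of them at 5 FPKM in NKX2-5+ and 5 in NKX2-5-. The 5 epicardial markers summed to 1.77 FPKM in NKX2-5+ and 35.5 in NKX2-5-, and the 5 hepatic and visceral endoderm markers to 62.0 FPKM in NKX2-5+ and 345 in NKX2-5-. The 6 endothelial markers summed to 10.4 FPKM in NKX2-5+ and 46.2 in NKX2-5-, while the 6 heart muscle markers summed to 2672 FPKM in NKX2-5+ and 577 in NKX2-5-. None of the markers on these 5 lists was at 0 in either library. Their part in the differences of FRZB, SFRP2 and FZD1 was not tested. Of the 57 further genes 1 was called, CTHRC1, a secreted WNT cofactor, at 7.12 FPKM in NKX2-5+ cells against 44.5 in the NKX2-5- cells, and their median was -0.25. That 1.75% lies near the 1.16% of all genes called lower.

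Within day 14 no member of the set passed the rule between aMHC+ and aMHC- cells. None was called higher (against 0.159% of all genes) or lower (against 0.086%), and the count was 0 in both directions for the 57 further genes (median -0.22). With so few of all genes called, these counts of 0 are near the background. Of all genes called, 64.9% were higher as deposited (37 higher, 20 lower), 67.2% after median-ratio scaling and 100% at equal sums without small RNA and histone genes (14 higher, 0 lower). Among members of at least 5 FPKM in some library, ratios ran from -0.91 for FZD1 to 0.26 for SFRP2, and the median over the 52 was -0.03, against 0 over all genes. FRZB stood at 25.1 FPKM in aMHC+ and 44.5 in aMHC-, and DKK1 at 1.02 FPKM in aMHC+ and 2.78 in aMHC-. The 6 stromal markers summed to 347 FPKM in aMHC+ and 719 in aMHC-, and the heart muscle markers to 5159 FPKM in aMHC+ and 1741 in aMHC-, with none at 0. Of the stromal markers DCN went the other way, at 1.97 FPKM in aMHC+ and 1.44 in aMHC-. The part of these lists in the values of FZD1, FRZB and DKK1 was not tested.

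Between day 7 NKX2-5+ and day 14 aMHC+ cells, 1 of 52 members was called higher in aMHC+ (1.92%, against 1.75% of all genes) and 0 lower (against 0.189%). That share is near the background. The gene was FRZB (3.90). FZD8 (1.67), FZD2 (1.64) and LGR4 (1.47) had positive ratios short of the rule, but the pair carried a general offset of 0.61, and the members' median was 0, against 0.04 over all genes. WNT5B stood at 3.78 FPKM in aMHC+ and 0.186 in day 7 NKX2-5+, and RSPO3 at 0.0935 FPKM in aMHC+ and 3.56 in NKX2-5+, both below the 5 FPKM minimum. RSPO3 was called lower after median-ratio scaling and at equal sums, which put its NKX2-5+ level above that minimum. Stromal markers summed to 347 FPKM in aMHC+ and 43.7 in day 7 NKX2-5+, and their part was not tested. Of all called genes 90.3% were higher in aMHC+ as deposited, 65.3% after median-ratio scaling and 43.9% at equal sums. Of the 57 further genes 2 were higher (3.51%, against 1.75% of all genes), GPC3 at 280 FPKM in aMHC+ against 23.7 in NKX2-5+ and DACT1 at 45.7 FPKM in aMHC+ against 5.16 in NKX2-5+, and 1 was lower (1.75%, against 0.189%), CTHRC1 at 0.462 FPKM in aMHC+ against 7.12 in NKX2-5+ (median over the 57, 0.25).

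**Figure D4:**
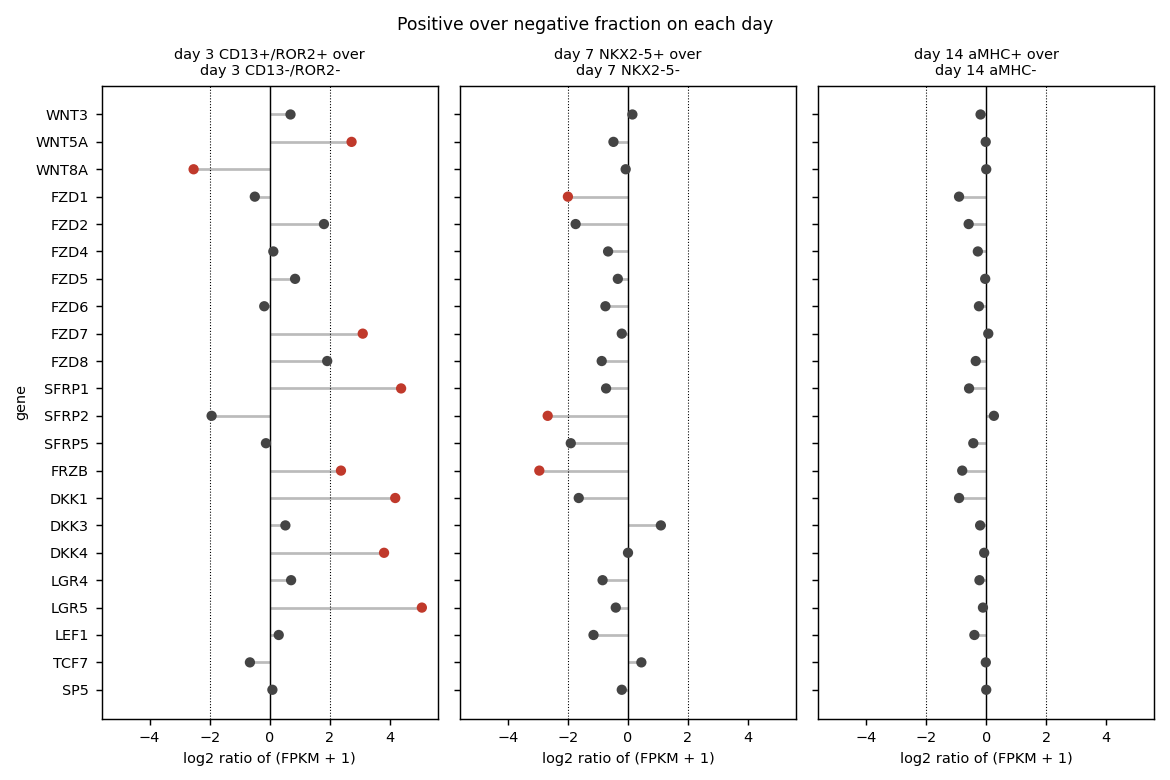
Log2 ratio of (FPKM + 1), positive over negative fraction, for the 22 members of at least 5 FPKM in some library (rows) on days 3, 7 and 14 (panels). Dotted lines mark the ratio of 2 in size and red points the called genes. There are 8 on day 3, 3 on day 7, all lower in NKX2-5+, and 0 on day 14.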

How the data were processed

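Total RNA of 7 samples, sorted into a preservative and extracted on columns, was made into TruSeq RNA v2 libraries, a kit that keeps no strand information, and read from a single end, per the labels' protocols. The authors deposited FPKM values, 1 column per library with gene symbols. Per the submitters' processing notes Cufflinks and hg19 were used; versions, aligner, annotation and handling of shared reads were not given in the sources used here. Of 23368 rows, 106 had no FPKM value in any library and were left out.

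Groups come from the labels, 1 library each, so the 7 comparisons have no test. The call is log2((FPKM + 1) / (FPKM + 1)) of at least 2 in size with 5 FPKM or more on the higher side, over all 23262 genes. This scale understates differences of low genes. The members and lists were chosen with earlier results of these data known. Members of at least 5 FPKM in any library are given in every library or by range, the rest by range; up to 6 called further pathway genes per comparison could be named. Of 58 such genes 57 were found, 2 of them by RefSeq synonyms. Promoter sequences are from RefSeq, GRCh38.p14; that annotation gave only names, overlaps and those sequences. Of the 52 members 34 had a promoter entry. Relative depth came from the most frequent ratio of values below 0.3 FPKM. Alternatives were pseudocounts of 0.1 and 5, no minimum, scaling by the median ratio of 7780 genes (1 FPKM or more in all 7 libraries), and equal sums without 1711 small RNA and histone genes. Python 3.11.15, pandas 2.3.3, numpy 2.4.6 and matplotlib 3.10.9 were used.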

Additional observations from a re-analysis of the deposited data

Results flagged for a closer look

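FRZB was the 1 member called in opposite directions between the sorted fractions of 2 days. Its log2 ratio was 2.37 for CD13+/ROR2+ over CD13-/ROR2- on day 3 (5.27 against 0.213 FPKM) and -2.95 for NKX2-5+ over NKX2-5- on day 7 (0.749 against 12.5 FPKM). The difference between the days was not tested, since each fraction is 1 library.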

How the results depend on the processing

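The 33 calls of members kept their direction under every alternative. All 33 stayed past the rule with a pseudocount of 0.1 and with no minimum, 29 after median-ratio scaling, 31 at equal sums without small RNA and histone genes, and 12 with a pseudocount of 5. The calls lost after median-ratio scaling were FRZB in both day 3 CD13+/ROR2+ comparisons, FZD1 within day 7 and WNT5A in day 7 NKX2-5+ over CD13+/ROR2+; equal sums lost the last 2 of these. With a pseudocount of 5, which by construction lowers the ratios of low genes, members higher were 4 in CD13+/ROR2+ over CD13-/ROR2-, 2 in CD13+/ROR2+ over hESC and 0 in CD13-/ROR2- over hESC, and members lower were 0 in CD13+/ROR2+ over CD13-/ROR2-, 0 in day 7 NKX2-5+ over NKX2-5- and 4 in NKX2-5+ over CD13+/ROR2+. Median-ratio scaling gave 2 members lower in the day 3 pair. Median-ratio scaling and equal sums each gave 1 higher (DKK3) in day 7 NKX2-5+ over CD13+/ROR2+ and 1 lower (RSPO3) in day 14 aMHC+ over day 7 NKX2-5+. With no minimum that last comparison gave 2 higher (FRZB and WNT5B) and 1 lower (RSPO3). Of 70 counts under alternatives, 57 were within 1.5 times the main count. No paired analysis was possible because each group is 1 library. Depth limits the values near 1 FPKM and below, and was lowest in day 7 NKX2-5+ among the 6 libraries with an estimate.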
